A study of Homo sapiens with 27 samples.

Results

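Interferon-stimulated genes (ISGs) were followed across all groups of a study of HT1080 cells, a human fibrosarcoma line grown as fibroblasts, in which nuclear envelope transmembrane proteins (NETs) were expressed as fusions with green fluorescent protein (GFP). A list of 42 ISGs was chosen by name, and for each the probe with the highest mean level over the 27 bead arrays was used. A named probe was found for 40 of the 42, out of 18665 genes in all, and STAT2 and HERC6 were not analysed here. Lines stably expressing a full-length NET, selected with Geneticin and enriched for GFP by cell sorting, were made for NET29 (4 arrays), NET39 (4 arrays) and NET47 (3 arrays) and compared with untreated control HT1080 cells (n = 4). Cells transiently transfected with the soluble nucleoplasmic fragment of NET29, NET39 or NET47 (n = 3 each) were compared with cells transiently transfected with GFP carrying a nuclear localisation signal (NLS-GFP, n = 3). All groups shared the parental line. Nothing in the sources used here says how many independent lines stood behind each full-length protein, although RNA of the stable lines came from separate passages, and the p-values below measure only the spread between these arrays. NET29 is the protein of TMEM120A, NET39 of PLPP7 and NET47 of TM7SF2, which the study chose for their preference for fat, muscle and liver.

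Type I interferons bind a receptor of IFNAR1 and IFNAR2 and signal through the kinases JAK1 and TYK2 to a transcription factor complex that holds IRF9 and binds the interferon-stimulated response element (ISRE) of target promoters. Interferon gamma acts mainly through another element, the gamma-activated sequence (GAS). The products include sensors of foreign nucleic acid, enzymes that degrade RNA, GTPases and membrane proteins that block viral entry, and many of them are kept at a low level without added interferon. Foreign DNA brought into cells by transfection is a known trigger of such signalling, so the ISGs were also compared between transiently transfected and stably expressing cells.

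Levels are log2 normalised intensities, differences are log2 fold changes with their standard error (SE), and a gene was called changed when limma's adjusted p was under 0.05 and the log2 fold change was beyond 0.5. A probe counted as above background on an array when it exceeded the 95th percentile of probes for gene families that should be silent, which lay between 6.17 and 6.27 on the 27 arrays. Above background on at least 3 arrays were 35 members, and 24 were so on all 27. MX2, IFI44L, IRF7, RSAD2 and XAF1 were above it on no array, so no level could be given for them. The defining fibroblast and mesenchymal markers with a probe, 8 of 9 listed, were all above background on at least 3 arrays. Of 7 immune cell markers with a probe, 3 were above background on at least 3 arrays, CD68 and NCAM1 on all 27 and CD14 on 16, and the pan-leukocyte marker PTPRC on none. Of the epithelial markers, 0 of 4 were above it on at least 3.

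Median array intensity was 54.8 to 73.5 in transiently transfected cells and 46.9 to 58.9 in stable and untreated cells, so brightness and mode of expression cannot be told apart. Along the leading principal component (36.3% of the variance) the transient arrays lay between 9.56 and 30.9 and the arrays of the stable lines between -28.8 and -15.4. Untreated replicates 1 to 3 lay between -12.4 and -7.70, but untreated replicate 4 lay at 22.0, among the transient arrays. On the second component untreated replicate 2 and NET47 full-length replicate 3 stood apart. Where the omission of one of these 3 arrays changed a call, the value without it is given.

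Across the 14 comparisons made, 11 of the 40 members were past the threshold in at least 1 and 29 in none. Promoter sequences were examined to see what the members share in their regulatory elements. The RefSeq promoter table (GRCh38.p14), which gives 250 bases before and 50 bases from each transcription start on, held 43 promoters of 33 members and none of MX2, IFIT2, OAS2, OASL, IRF7, USP18, TRIM22, IFITM2 and GBP2. An ISRE, taken as GAAA, any 2 bases and GAAA again, was searched for on both strands and was found in 28 of the 43 promoters (65.1%), against 3.57% of all 35116 promoters of this length. A GAS written as TTCNNNGAA, which reads the same on both strands, was found in 13 of the 43 (30.2%), against 7.66% of all promoters. Counted by gene, 24 of the 33 members held an ISRE match, 6 of the 7 that changed in a comparison and 18 of the other 26. The 4 promoters below belong to MX1 and IFI27, which were lower in 2 of the stable lines, HERC5, which was higher there, and IFITM1, which was higher in the NET47 line. Capitals mark the ISRE matches, and of several promoters of a gene the one with the most matches, or the first of equals, is shown.
MX1 (chr21:41420308-41420607, strand +): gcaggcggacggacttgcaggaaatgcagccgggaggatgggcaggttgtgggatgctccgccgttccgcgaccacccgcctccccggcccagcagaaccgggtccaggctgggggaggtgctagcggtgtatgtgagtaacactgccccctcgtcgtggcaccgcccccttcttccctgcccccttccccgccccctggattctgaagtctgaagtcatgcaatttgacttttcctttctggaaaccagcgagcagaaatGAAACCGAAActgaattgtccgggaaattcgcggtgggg
IFI27 (chr14:94110486-94110785, strand +): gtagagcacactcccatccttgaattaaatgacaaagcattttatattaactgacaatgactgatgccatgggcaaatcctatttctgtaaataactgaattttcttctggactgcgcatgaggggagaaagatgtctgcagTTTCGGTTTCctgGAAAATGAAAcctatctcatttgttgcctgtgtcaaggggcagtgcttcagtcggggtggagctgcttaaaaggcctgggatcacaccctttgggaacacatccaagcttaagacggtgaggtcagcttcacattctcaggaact
HERC5 (chr4:88456869-88457168, strand +): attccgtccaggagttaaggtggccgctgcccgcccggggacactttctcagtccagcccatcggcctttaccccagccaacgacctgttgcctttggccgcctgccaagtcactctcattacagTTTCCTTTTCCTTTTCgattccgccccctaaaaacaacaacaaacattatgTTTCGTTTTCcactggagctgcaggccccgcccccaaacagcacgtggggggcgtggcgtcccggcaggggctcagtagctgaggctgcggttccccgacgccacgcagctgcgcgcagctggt
IFITM1 (chr11:313790-314089, strand +): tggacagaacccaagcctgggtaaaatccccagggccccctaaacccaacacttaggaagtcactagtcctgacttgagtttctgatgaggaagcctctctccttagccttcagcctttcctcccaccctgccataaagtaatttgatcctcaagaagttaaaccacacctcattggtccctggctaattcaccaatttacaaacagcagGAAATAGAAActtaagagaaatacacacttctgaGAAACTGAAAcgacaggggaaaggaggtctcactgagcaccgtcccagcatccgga
The IFI27 promoter carried 2 matches on opposite strands, with a GAS match overlapping both of them, whereas the 3 matches of HERC5, of which 2 overlap, all lay on the strand opposite to the one printed. In IFITM1 the second match spanned the transcription start, and in the MX1 promoter shown the match lay within the transcript.

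The full-length NET29 and NET39 lines were set against untreated cells. Each stable line, also that of NET47, differs from untreated cells in the NET, GFP, Geneticin selection and cell sorting. These cannot be told apart. In the NET29 and NET39 lines the same 5 of 40 members changed: MX1, IFI27, OAS2 and TRIM22 were downregulated and HERC5 was upregulated. That is 12.5% of the members in each line, against 3.29% of all 18665 genes in the NET29 line (1.06% higher, 2.23% lower) and 3.72% in the NET39 line (1.21% higher, 2.51% lower). The median difference of the 40 members was -0.13 in both lines, against 0.00 over all genes. With NLS-GFP as the control 11 members were called in each line, 3 higher and 8 lower, and with the compared arrays only 2 in the NET29 line and 3 in the NET39 line, all lower. The share of all genes called was not counted under these settings, so these counts have no background beside them. Both comparisons used the same untreated arrays, so that their resemblance is not independent, and a direct test between the 2 lines found 0 of 40 members changed (0.171% of all genes, with 0.0857% higher and 0.0857% lower, limma, 2 members at an unadjusted p under 0.05, 0 under every alternative run).

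**Figure D1:**
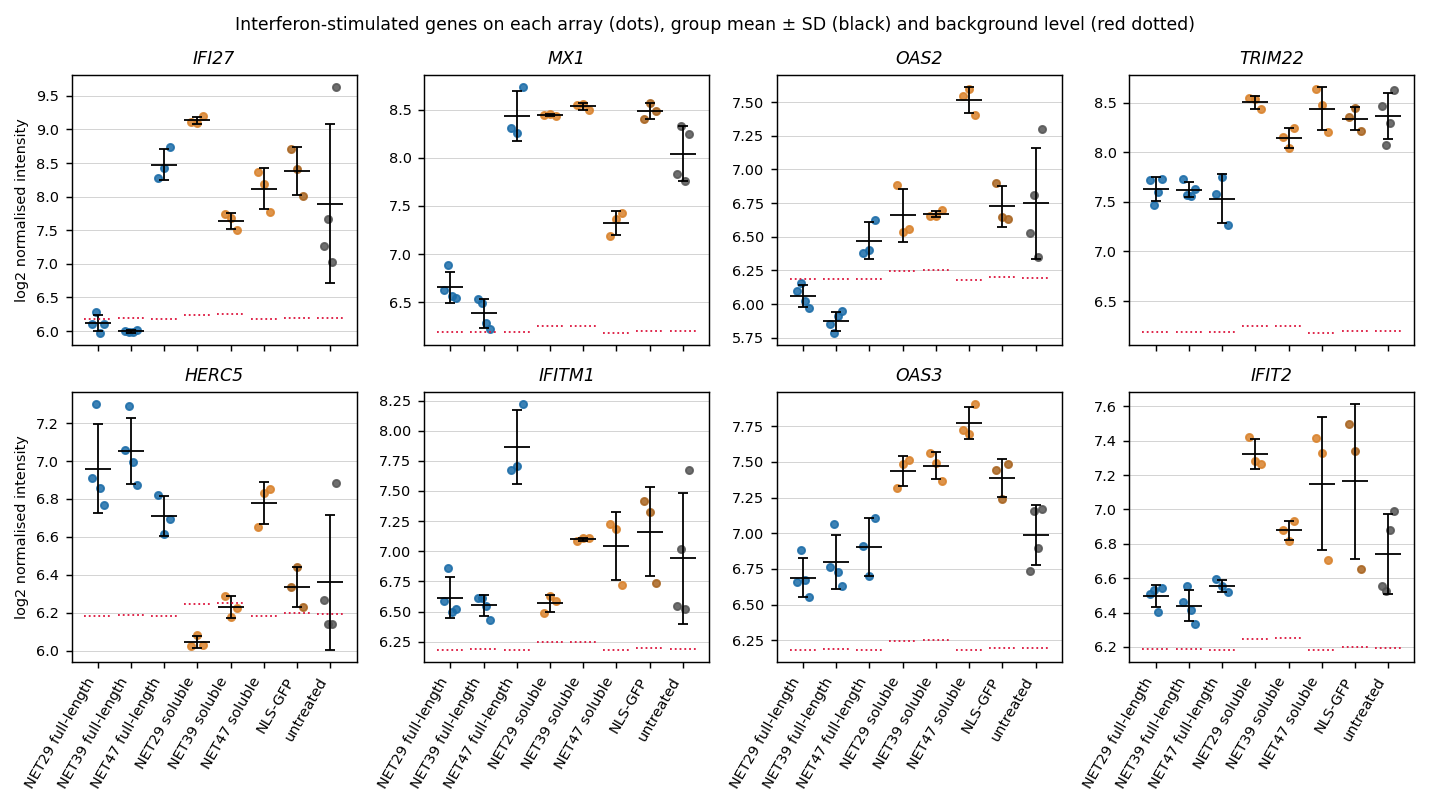
Levels of 8 ISGs (log2 normalised intensity) on each of the 27 arrays, by group. Dots are arrays, black marks are the group mean ± SD, and the red dotted line is the group's mean background level. IFI27 and OAS2 sit near or under background in the NET29 and NET39 lines, and untreated replicate 4 has the highest IFI27 level of all arrays at 9.63.

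MX1 encodes a GTPase that traps viral nucleocapsids. Its levels were 6.62, 6.88, 6.56 and 6.54 in the NET29 line and 6.53, 6.49, 6.28 and 6.22 in the NET39 line, against 7.83, 8.33, 7.76 and 8.25 in untreated cells. All 8 arrays of these lines lay below all 4 untreated arrays. The difference was -1.39 (SE 0.12, adjusted p = 1.64e-08), a 2.63-fold decrease, in the NET29 line and -1.66 (SE 0.12, adjusted p = 6.88e-10), a 3.17-fold decrease, in the NET39 line. Its neighbour and paralogue MX2 was not well above background on any array.

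IFI27 encodes a small mitochondrial and nuclear envelope protein and is among the genes most strongly induced by interferon alpha. Its levels were 6.11, 6.28, 5.98 and 6.11 in the NET29 line and 6.0, 5.98, 5.98 and 6.02 in the NET39 line, against 7.27, 7.66, 7.02 and 9.63 in untreated cells. The gene was above background on 1 of 4 NET29 arrays and on none of the NET39 arrays, and on all 4 untreated arrays, of which replicate 4 was far brighter than the rest. The difference was -1.78 (SE 0.32, adjusted p = 0.00102) in the NET29 line. In the NET39 line the difference was -1.90 (SE 0.32, adjusted p = 0.000414). Set against the background level IFI27 was 3.27-fold lower there, which is no floor, since untreated replicate 4 raised the untreated mean. Without untreated replicate 4 the differences were -1.20 in the NET29 line and -1.32 in the NET39 line, and both passed (adjusted p = 8.01e-06 and 1.78e-06). With only the arrays of the 2 compared groups in the fit neither passed (adjusted p = 0.191 and 0.124).

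OAS2 makes 2′-5′ oligoadenylates when it meets double-stranded RNA. It was measured at 6.10, 6.15, 6.02 and 5.97 in the NET29 line and 5.85, 5.79, 5.91 and 5.95 in the NET39 line, against 6.53, 6.81, 6.35 and 7.30 in untreated cells. No array of the 2 lines was above background and all 4 untreated arrays were. Set against the background level OAS2 was 1.48-fold lower in the NET29 line (difference -0.69, SE 0.13, adjusted p = 0.00143) and 1.47-fold lower in the NET39 line (difference -0.87, SE 0.13, adjusted p = 6.89e-05). Without untreated replicate 4, the brightest untreated array, the differences were -0.50 and -0.69, and both still passed. The OAS2 result rests on 1 of 4 probes: the other probes, above background on 0, 8 and 5 of 27 arrays, differed by -0.16 to -0.02 and did not pass, and the mean of the 4 probes was not past the threshold either (-0.22 and -0.29).

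TRIM22, a ubiquitin ligase that represses viral transcription, was the only member that changed in all 3 lines. Its levels were 7.72, 7.47, 7.60 and 7.74 in the NET29 line, 7.73, 7.57, 7.56 and 7.63 in the NET39 line and 7.58, 7.75 and 7.26 in the NET47 line, against 8.47, 8.08, 8.29 and 8.63 in untreated cells. No array of a stable line reached the lowest untreated array. The differences were -0.74 (SE 0.11, adjusted p = 8.77e-05), -0.74 (SE 0.11, adjusted p = 6.37e-05) and -0.84 (SE 0.12, adjusted p = 0.000176) in the NET29, NET39 and NET47 lines. Under median scaling in place of quantile normalisation the estimates were of like size (-0.68, -0.70 and -0.85) but passed in none of the lines (adjusted p = 0.284, 0.225 and 0.266).

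HERC5, the main ligase that attaches ISG15 to proteins, went the other way. Its levels were 6.91, 7.30, 6.86 and 6.77 in the NET29 line and 7.06, 7.29, 7.0 and 6.87 in the NET39 line, against 6.27, 6.14, 6.14 and 6.89 in untreated cells. Untreated replicate 4 overlapped with both lines, while the other 3 untreated arrays lay below them. The difference was 0.60 (SE 0.13, adjusted p = 0.00541) in the NET29 line and 0.69 (SE 0.13, adjusted p = 0.00100) in the NET39 line, and without untreated replicate 4 it was 0.77 and 0.87. ISG15 itself, the ubiquitin-like modifier, had 7.25, 7.80, 7.93 and 7.47 in the NET29 line and 7.66, 7.98, 7.68 and 7.70 in the NET39 line, against 7.38, 8.37, 8.02 and 8.66 in untreated cells. The groups overlapped, and its differences of -0.49 and -0.35 did not pass.

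The remaining members of these families did not pass. Among the OAS genes, which lie side by side in the order OAS1, OAS3, OAS2, OAS1 differed by -0.31 and -0.41 in the NET29 and NET39 lines, with adjusted p under the limit (0.0407 and 0.00354) but the size within it, and OAS3 by -0.30 and -0.19. IFIT3, which stabilises the viral RNA sensor IFIT1, differed by -0.43 in the NET29 line (adjusted p = 0.0315), again within the size limit. IFI44 had 8.25, 7.79, 7.92 and 8.12 in the NET29 line and 8.03, 7.78, 7.93 and 7.89 in the NET39 line, against 7.80, 6.65, 7.31 and 7.74 in untreated cells, and its positive estimates of 0.65 and 0.53 did not pass. The groups overlapped by a single untreated array in both, and in the NET29 line IFI44 passed with the replicate block (0.65, adjusted p = 0.0404), with dim probes left out (adjusted p = 0.0306), without untreated replicate 4 (0.77, adjusted p = 0.0210) or NET47 full-length replicate 3 (0.65, adjusted p = 0.0222). Of the 40 members, 33 stayed within 0.5 of untreated cells in each of the 2 lines, and estimates were below 0 for 27 members in the NET29 line and 26 in the NET39 line.

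The NET47 line differed from the other 2. Only 2 of 40 members changed against untreated cells, 5% against 1.21% of all genes (0.584% higher, 0.627% lower): TRIM22 was downregulated, as above, and IFITM1 was upregulated. IFITM1, a membrane protein that hinders the fusion of viruses with the cell, was at 7.67, 7.70 and 8.22 in the NET47 line, against 6.54, 7.02, 6.53 and 7.68 in untreated cells. Untreated replicate 4 overlapped with the line and the other 3 untreated arrays did not. The difference of 0.92 (SE 0.20, adjusted p = 0.0193), a 1.90-fold increase, no longer passed without NET47 full-length replicate 3 (0.75, adjusted p = 0.190), untreated replicate 1 (0.79, adjusted p = 0.0692) or untreated replicate 3 (0.78, adjusted p = 0.0802). The call was also lost with NLS-GFP as the control (0.70, adjusted p = 0.0525) and with the compared arrays only (adjusted p = 0.761). IFITM2 and IFITM3, its neighbours on both sides, differed by 0.12 and 0.17 and did not pass. IFI27 was at 8.28, 8.42 and 8.73 in the NET47 line, within the range of the untreated arrays, and without untreated replicate 4 it was 1.16 higher than in untreated cells (adjusted p = 8.46e-05), against 0.58 with it (not past the threshold). HERC5 also passed in the NET47 line without that array (0.52, adjusted p = 0.00851).

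Direct tests between the lines showed the size of this difference. Against the NET29 line, 4 of 40 members changed in the NET47 line (10% against 2.28% of all genes, 1.66% higher and 0.621% lower), with MX1 (1.78, SE 0.12, adjusted p = 1.30e-09), IFI27 (2.36, SE 0.35, adjusted p = 0.000145, with 1 of 4 NET29 arrays above background) and IFITM1 (1.25, SE 0.20, adjusted p = 0.000449) higher and IFI44 lower (-0.87, SE 0.20, adjusted p = 0.0169). Against the NET39 line, 5 of 40 changed (12.5% against 2.37%, 1.74% higher and 0.627% lower), and MX1 (2.05), IFI27 (at least 4.89-fold), IFITM1 (1.31) and OAS2 (at least 1.22-fold) were higher and IFI44 (-0.76) lower. All of these were without overlap between the arrays of the 2 lines. MX1 had 8.31, 8.26 and 8.74 in the NET47 line, beside the 8 lower values of the other lines above, and IFITM1 had 6.58, 6.86, 6.50 and 6.52 in the NET29 line and 6.62, 6.61, 6.55 and 6.43 in the NET39 line. IFI44 had 7.40, 7.43 and 6.61 in the NET47 line, and neither of its 2 calls passed without NET47 full-length replicate 3, whose level was the lowest (adjusted p = 0.253 and 0.535). Against the NET39 line the IFI44 call was lost in 21 of 27 single omissions and 5 of 10 other alternatives, among them the replicate block (adjusted p = 0.0650), and against the NET29 line in 3 omissions and 2 alternatives. Nor did OAS2 pass without that array (0.52, adjusted p = 0.166). Under median scaling 3 members were higher and 0 lower against the NET29 line and 4 and 0 against the NET39 line.

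**Figure D2:**
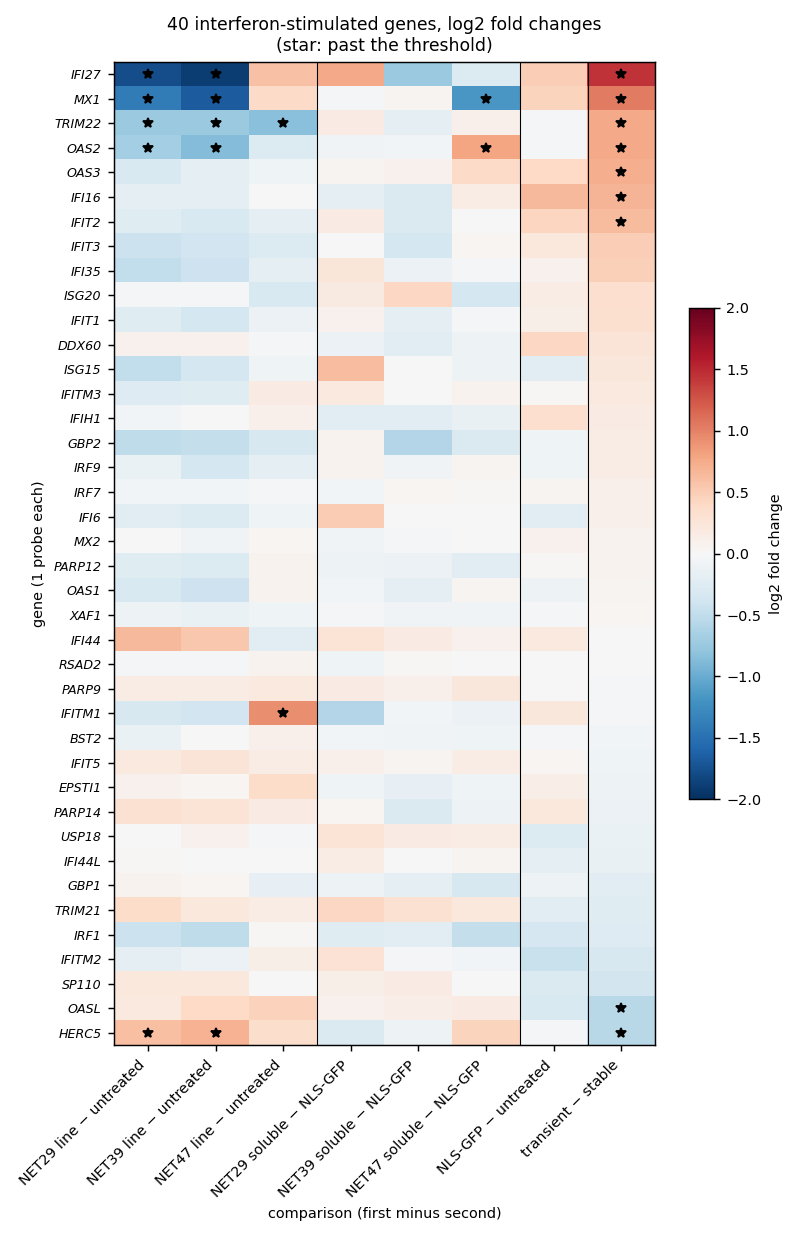
Log2 fold changes (colour) of the 40 measured ISGs (rows) in 8 comparisons (columns, first group minus second), ordered by the difference between transient and stable groups. Stars mark changes past the threshold, which lie mostly in the NET29 and NET39 lines (5 each) and in the transient groups against the stable lines (9).

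The soluble fragments were set against NLS-GFP to ask whether the nucleoplasmic part alone changed the ISGs. For the NET29 and NET39 fragments limma called 0 of 40 members, against 1.3% of all genes for NET29 (0.498% higher, 0.804% lower) and 0.145% for NET39 (0.107% higher, 0.0375% lower), with 6 and 4 members at an unadjusted p under 0.05, and up to 2 members for NET29 and 1 for NET39 under other settings. IFI27 was called under 3 such settings with each fragment and NLS-GFP as the control. In each case 1 of the 3 was the moderated F test over all groups, which does not test the fragment itself. It was at 9.12, 9.09 and 9.20 with the NET29 fragment and 7.74, 7.68 and 7.50 with the NET39 fragment, against 8.71, 8.41 and 8.02 with NLS-GFP. The 3 NET29 arrays lay above all NLS-GFP arrays and the 3 NET39 arrays below them, but with differences of 0.75 and -0.74 neither passed (adjusted p = 0.362 and 0.578). Leaving out untreated replicate 4, which is no array of either comparison, brought both past the threshold (adjusted p = 0.0102 and 0.0382).

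ISG15 had the next largest positive estimate with the NET29 fragment, at 8.96, 8.31 and 8.28, against 7.99, 7.77 and 7.94 with NLS-GFP. The arrays did not overlap, but the difference of 0.62 did not pass (unadjusted p = 0.0164). IFITM1 had 6.49, 6.63 and 6.59 with the NET29 fragment, against 7.42, 7.33 and 6.74 with NLS-GFP, with no overlap and a difference of -0.59 that did not pass. ISG20, an RNA exonuclease, had 10.12, 9.98 and 9.95 with the NET39 fragment, against 9.86, 9.76 and 9.18 with NLS-GFP. Its arrays did not overlap either, and the difference of 0.42 was within the size limit and did not pass.

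The NET47 fragment changed 2 of 40 members against NLS-GFP, 5% against 1.17% of all genes (0.354% higher, 0.814% lower). MX1 had 7.18, 7.36 and 7.42 with the NET47 fragment, against 8.41, 8.57 and 8.49 with NLS-GFP, with no overlap, and was 2.24-fold lower (difference -1.17, SE 0.13, adjusted p = 1.08e-05). OAS2 had 7.54, 7.60 and 7.41 with the NET47 fragment, the highest levels of all groups, against 6.90, 6.65 and 6.63 with NLS-GFP. Its difference of 0.79 (SE 0.15, adjusted p = 0.00484), a 1.73-fold increase, rests on 1 of 4 probes. The others differed by 0.19, 0.31 and 0.00 and did not pass, and the mean of the probes (0.32) was within the size limit. The OAS2 neighbour OAS3, which makes longer oligoadenylates, had 7.72, 7.69 and 7.90 with the NET47 fragment, against 7.44, 7.24 and 7.48 with NLS-GFP, and its difference of 0.39 did not pass. HERC5 was at 6.65, 6.83 and 6.85 with the NET47 fragment, against 6.34, 6.44 and 6.23 with NLS-GFP, without overlap and with a difference of 0.44 that did not pass. In bulk RNA a change in all cells and a larger change in a transfected share of the cells cannot be told apart.

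Whether a full-length line and the soluble fragment of the same NET differed in their effect was tested as an interaction, the fragment's difference from NLS-GFP minus the line's difference from untreated cells. For NET29, 4 of 40 members passed (10% against 5.34% of all genes, 2.6% higher and 2.74% lower), a count not far above the background. MX1 differed by -0.04 with the fragment and -1.39 in the line (interaction 1.35, SE 0.18, adjusted p = 3.78e-05), IFI27 by 0.75 and -1.78 (2.53, SE 0.49, adjusted p = 0.00307), TRIM22 by 0.17 and -0.74 (0.90, SE 0.16, adjusted p = 0.00175, but 0.41 and adjusted p = 0.673 under median scaling) and HERC5 by -0.29 and 0.60 (-0.89, SE 0.19, adjusted p = 0.00861). For NET39, 3 of 40 passed (7.5% against 2.29%, 1.32% higher and 0.975% lower), led by MX1 with 0.05 for the fragment and -1.66 for the line (1.71, SE 0.18, adjusted p = 1.54e-06). OAS2 (0.82, adjusted p = 0.0306) and HERC5 (-0.80, adjusted p = 0.0345) lost their call when any of several single arrays was left out, OAS2 in 9 and HERC5 in 10 of the 27 omissions. Without untreated replicate 2 neither passed (adjusted p = 0.0533 and 0.0726), and TRIM22 did (0.65, adjusted p = 0.0329).

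For NET47, 3 of 40 members passed (7.5% against 0.723% of all genes, 0.263% higher and 0.461% lower), and MX1 ran opposite to the other 2 NETs. It differed by -1.17 with the fragment and 0.39 in the line (interaction -1.56, SE 0.18, adjusted p = 1.97e-05), while OAS2 differed by 0.79 and -0.28 (1.07, SE 0.20, adjusted p = 0.00994) and TRIM22 by 0.10 and -0.84 (0.94, SE 0.17, adjusted p = 0.00692). The fragment and the line also differed in the mode of expression, so full length and mode cannot be told apart. The OAS2 interaction rests on 1 of 4 probes, the others being at -0.06, 0.16 and 0.25, and was lost with their mean (0.36, adjusted p = 0.151) and with the compared arrays only (adjusted p = 0.300). Without untreated replicate 4, IFI27 (-1.43, adjusted p = 0.00101) and IFITM1 (-1.29, adjusted p = 0.00456) passed for NET47 too. Under median scaling 1 member was higher and 1 lower for each of the 3 NETs.

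**Figure D3:**
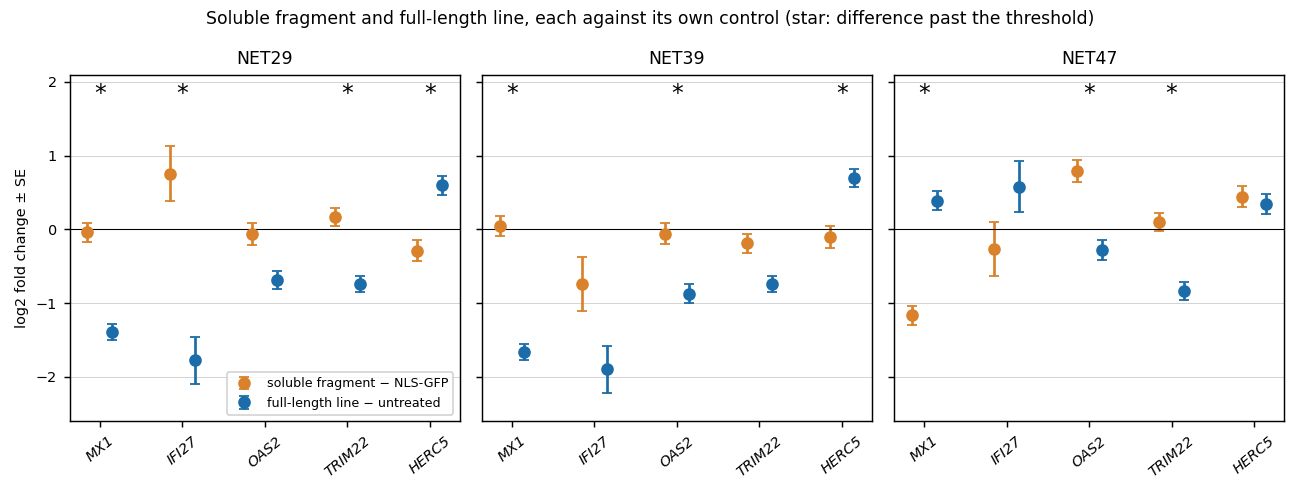
Log2 fold change ± SE of 5 ISGs with each soluble fragment against NLS-GFP (orange) and in each full-length line against untreated cells (blue). Stars mark members whose 2 effects differed past the threshold, such as MX1, at -0.04 and -1.39 for NET29 and at -1.17 and 0.39 for NET47.

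NLS-GFP cells were then set against untreated cells. The 2 controls differ in transient transfection, GFP and median array intensity (68.5 to 73.3 against 51.2 to 58.9), which cannot be told apart. Limma called 0 of 40 members (1.11% of all genes, 0.418% higher and 0.696% lower), with 12 at an unadjusted p under 0.05, 7 higher and 5 lower, and at most 2 members under any other setting. MX1 differed by 0.44, OAS3 by 0.40 and IFIT2, a tetratricopeptide protein that binds RNA, by 0.42. Over the 40 members, estimates were above 0 for 22 and below 0 for 18, with a median of 0.02 and a lowest value of -0.45. IFI16, a sensor of DNA, had 9.57, 9.52 and 9.05 with NLS-GFP, against 8.95, 7.97, 9.11 and 8.90 in untreated cells, and differed by 0.65 without passing (adjusted p = 0.107). The only member with an adjusted p under the limit was OASL, a catalytically inactive relative of the OAS enzymes, at -0.30 (adjusted p = 0.0423), within the size limit. Without untreated replicate 4, MX1 (0.51, adjusted p = 0.0184) and IFI27 (1.06, adjusted p = 0.000192) passed, both higher with NLS-GFP, and MX1 passed without untreated replicate 2 as well (0.54, adjusted p = 0.0385).

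The 4 transient groups together differed from the 3 stable lines together in 9 of 40 members (22.5% against 6.72% of all genes, 3.66% higher and 3.05% lower), with 7 higher and 2 lower in the transient groups. Under median scaling it was 6 higher and 4 lower, and under cyclic loess 9 higher and 1 lower. The median over the 40 members was 0.07 (0.00 over all genes), but -0.05 under median scaling, so the list as a whole had no direction that held. The 9 members were MX1, IFI27, OAS2, OAS3, IFIT2, IFI16 and TRIM22, which were higher, and HERC5 and OASL, which were lower. The SE and p-values of this comparison come from the spread between arrays within groups. They leave out the spread among the stable lines and among the transient groups. For 5 of the 9 the arrays did not overlap. How many of all genes did so was not counted, and these arrays also lay apart on the leading component. Of 7 immune cell markers with a probe, only CD68 was called, and it was higher in the transient groups (0.72). The median over the 7 markers was 0.03. Their summed linear level was 1986 to 2467 on the transient, 1360 to 1885 on the stable and 1671 to 2450 on the untreated arrays. PTPRC was not above background on any array. The part of these markers in the results was not tested.

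OAS3 ranged over 7.24, 7.49 and 7.90 (lowest, median and highest) on the 12 transient arrays, against 6.55, 6.73 and 7.11 on the 11 stable arrays. The groups did not overlap, and it was 1.65-fold higher (difference 0.72, SE 0.06, adjusted p = 6.24e-09). Its second probe, above background on no array, differed by -0.07. IFIT2 ranged over 6.65, 7.27 and 7.50 on the transient arrays, against 6.33, 6.52 and 6.59 on the stable arrays, a difference of 0.63 (SE 0.08, adjusted p = 3.95e-06) without overlap. Within the transient groups IFIT2 was low on the third replicate of NLS-GFP (6.65, against 7.50 and 7.34) and of the NET47 fragment (6.70, against 7.41 and 7.33). IFI16 ranged over 8.92, 9.31 and 9.66 on the transient arrays, against 8.21, 8.63 and 8.91 on the stable arrays, and just failed to overlap. Its difference of 0.68 (SE 0.11, adjusted p = 4.63e-05) was lost under median scaling (0.40, adjusted p = 0.114).

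TRIM22 ranged over 8.04, 8.39 and 8.64 on the transient arrays, against 7.26, 7.60 and 7.75 on the stable arrays. It was higher by 0.76 (SE 0.06, adjusted p = 3.53e-09) without overlap. The untreated mean of 8.37 lay beside the 8.34 of NLS-GFP, and the stable lines had means of 7.53 to 7.63. The difference thus restates the lower levels of the stable lines. MX1 (1.04, SE 0.07, adjusted p = 7.62e-11), IFI27 (1.45, SE 0.19, adjusted p = 2.63e-06) and OAS2 (0.76, SE 0.08, adjusted p = 5.26e-08) were higher too, but with overlap, which lay in the NET47 line for all 3. For OAS2 the untreated mean of 6.75 also lay beside that of NLS-GFP (6.73). Its other 3 probes differed by 0.02 to 0.10 and did not pass, and the mean of its probes (0.24) was within the size limit. OASL ranged over 5.86, 6.01 and 6.22 on the transient arrays, against 6.40, 6.54 and 6.91 on the stable arrays. It was above background on 1 of 12 transient and all 11 stable arrays (difference -0.56, SE 0.04, adjusted p = 5.26e-10), and its second probe differed by -0.10. HERC5 differed by -0.56 (SE 0.08, adjusted p = 3.66e-06), and its 3 arrays with the NET47 fragment overlapped with the stable lines.

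**Figure D4:**
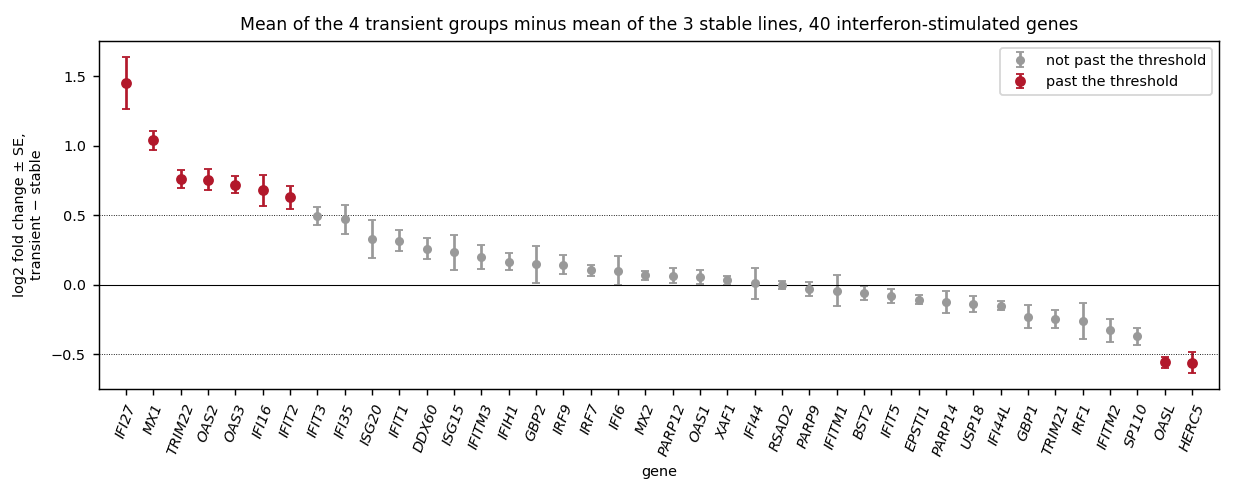
Difference between the 4 transient groups and the 3 stable lines (log2 fold change ± SE) for the 40 measured ISGs, in order of size. Red marks the 9 members past the threshold, from IFI27 at 1.45 to HERC5 at -0.56, and dotted lines mark the limits of 0.5.

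The array values of the larger movers not yet given show where each group stood. OAS3 had 6.66, 6.88, 6.67 and 6.55 in the NET29 line, 6.76, 7.06, 6.73 and 6.63 in the NET39 line and 6.91, 6.70 and 7.11 in the NET47 line, against 6.74, 7.15, 6.89 and 7.17 in untreated cells. In transient cells it had 7.32, 7.49 and 7.51 with the NET29 fragment, 7.56, 7.49 and 7.37 with the NET39 fragment and 7.72, 7.69 and 7.90 with the NET47 fragment, against 7.44, 7.24 and 7.48 with NLS-GFP. Every transient array thus lay above every stable one, and the untreated arrays overlapped with the stable lines. IFIT2 had 6.51, 6.53, 6.41 and 6.54 in the NET29 line, 6.46, 6.55, 6.42 and 6.33 in the NET39 line and 6.59, 6.55 and 6.52 in the NET47 line, against 6.55, 6.53, 6.88 and 6.99 in untreated cells. In transient cells it had 7.42, 7.28 and 7.26 with the NET29 fragment, 6.88, 6.82 and 6.93 with the NET39 fragment and 7.41, 7.33 and 6.70 with the NET47 fragment, against 7.50, 7.34 and 6.65 with NLS-GFP. The NET29 fragment was the only one of the fragments with all arrays above the untreated range.

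IFI16 had 8.76, 8.21, 8.57 and 8.69 in the NET29 line, 8.56, 8.28, 8.63 and 8.74 in the NET39 line and 8.87, 8.91 and 8.42 in the NET47 line, against 8.95, 7.97, 9.11 and 8.90 in untreated cells. In transient cells it had 8.92, 9.20 and 9.44 with the NET29 fragment, 8.93, 9.15 and 9.19 with the NET39 fragment and 9.66, 9.49 and 9.42 with the NET47 fragment, against 9.57, 9.52 and 9.05 with NLS-GFP. The untreated arrays spread more widely than any other group, with replicate 2 the lowest. TRIM22 had 8.55, 8.54 and 8.43 with the NET29 fragment, 8.15, 8.04 and 8.25 with the NET39 fragment and 8.64, 8.47 and 8.21 with the NET47 fragment, against 8.36, 8.44 and 8.21 with NLS-GFP. HERC5 had 6.03, 6.08 and 6.03 with the NET29 fragment and 6.29, 6.18 and 6.22 with the NET39 fragment, against 6.34, 6.44 and 6.23 with NLS-GFP, and 6.82, 6.61 and 6.70 in the NET47 line. HERC5 was not above background on the NET29 fragment arrays, and it was above it on all 11 arrays of the stable lines.

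MX1 had 8.45, 8.46 and 8.43 with the NET29 fragment and 8.56, 8.56 and 8.50 with the NET39 fragment, against 8.41, 8.57 and 8.49 with NLS-GFP, and OAS2 had 6.88, 6.54 and 6.56 with the NET29 fragment and 6.66, 6.65 and 6.70 with the NET39 fragment, against 6.90, 6.65 and 6.63 with NLS-GFP. The arrays of both fragments overlapped with those of NLS-GFP for both genes. OAS2 had 6.38, 6.40 and 6.63 in the NET47 line, and IFITM1 had 7.08, 7.11 and 7.11 with the NET39 fragment and 7.23, 7.18 and 6.72 with the NET47 fragment. In IFITM1 the third NLS-GFP array and the third NET47 fragment array were both low.

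ISG15 had 7.64, 8.17 and 8.25 in the NET47 line, against the untreated values above, and 8.16, 7.90 and 7.63 with the NET39 fragment and 7.84, 7.62 and 7.94 with the NET47 fragment, against 7.99, 7.77 and 7.94 with NLS-GFP. ISG20 had 9.30, 9.87, 9.34 and 9.17 in the NET29 line, 9.29, 10.06, 9.20 and 9.15 in the NET39 line and 8.99, 8.81 and 9.64 in the NET47 line, against 8.84, 10.13, 9.43 and 9.38 in untreated cells. In transient cells ISG20 had 9.78, 9.81 and 9.73 with the NET29 fragment and 9.42, 9.46 and 8.88 with the NET47 fragment, against 9.86, 9.76 and 9.18 with NLS-GFP. In these comparisons of both genes the groups overlapped, and no difference passed. IFI44, a cytoplasmic protein of unsettled function, had 7.70, 7.95 and 7.87 with the NET29 fragment, 7.76, 7.59 and 7.86 with the NET39 fragment and 7.66, 7.53 and 7.80 with the NET47 fragment, against 7.58, 7.42 and 7.71 with NLS-GFP. Its arrays with each fragment overlapped with those of NLS-GFP.

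Other members that differed between transient and stable groups with an adjusted p under the limit stayed within the size limit, 11 of them in all. IFIT3 (0.50), IFI35 (0.47) and IFIT1 (0.32) were on the higher side, and SP110, a nuclear body protein (-0.37), IFITM2 (-0.33) and TRIM21, an intracellular antibody receptor (-0.24), on the lower. When untreated cells were counted with the stable lines, 7 members were higher and 0 lower in the transient groups.

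Further lists held the inputs and the sensors of the pathway. Of 16 interferon and receptor genes with a probe, limma called 0 in any of the 14 comparisons, with 0 to 6 of them at an unadjusted p under 0.05, against 0.145% to 6.72% of all genes, so that a count of 0 is near what the background gives. Of the interferons, IFNE was above background on 26 arrays, IFNW1 on 2, IFNK and IFNL1 on 1 each, and IFNA1, IFNA2, IFNB1, IFNG, IFNL2 and IFNL3 on none. The receptor genes IFNAR1, IFNAR2, IFNGR1, IFNGR2 and IL10RB were above background on all 27 arrays and IFNLR1 on none. Of 14 signal transduction genes, limma called 0 in any line or fragment against its control (0 to 4 at an unadjusted p under 0.05), against 0.145% to 3.72% of all genes, a count near the background. In the transient groups against the stable lines 2 of the 14 were higher and 0 lower, against 3.66% and 3.05% of all genes. They were NMI, a partner of STAT proteins (0.52), and STAT3 (0.59). Among 16 nucleic acid sensing genes, 2 were lower in each of the NET29 and NET39 lines, against 2.23% and 2.51% of all genes. IKBKE, a kinase that phosphorylates interferon regulatory factors, was lower in the NET29 (-0.85, adjusted p = 5.75e-07) and NET39 lines (-0.81, adjusted p = 1.16e-06). AIM2, a sensor of cytosolic DNA, was lower there too (-0.68 and -0.76). Both were thus past the threshold in the lines in which MX1 and IFI27 were low, and a link between these genes was not tested. IKBKE was higher in the NET47 line than in the NET29 (0.79) and NET39 lines (0.75). IKBKE was the only 1 of the 16 called between these lines, against 1.66% and 1.74% of all genes higher.

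AIM2 was also higher in the transient groups than in the stable lines (0.77), whereas CGAS, the enzyme that senses cytosolic DNA, was lower (-0.63). That is 1 of 16 sensing genes higher and 1 lower, against 3.66% and 3.05% of all genes, so that these counts are near the background. Of 42 other ISGs with a probe, 1 was lower in the NET29 line and 3 in the NET39 line, and 0 were higher in either, against 2.23% of all genes lower in the NET29 line and 2.51% in the NET39 line, so that the NET29 count is near the background. APOBEC3G, a cytidine deaminase that mutates retroviral DNA, was lower in both (-1.12, adjusted p = 8.27e-05, and -0.91, adjusted p = 0.000842). LGALS3BP, a secreted galectin ligand (-0.72), and HELZ2, a helicase (-0.55), were lower in the NET39 line, and LGALS3BP was also lower with NLS-GFP than in untreated cells (-0.72). With NLS-GFP it was the only 1 of the 42 called, against 0.696% of all genes lower. Between transient groups and stable lines, 2 of the 42 were higher and 2 lower, against 3.66% and 3.05% of all genes, so that these counts are near the background. LY6E, a membrane-anchored protein (0.79), and APOBEC3G (0.65) were higher, and PML, the organiser of nuclear bodies (-0.60), and ZC3HAV1, which binds CpG-rich viral RNA (-0.54), were lower.

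The other members gave no call in any comparison. ISG15 and ISG20 had the widest ranges of group means among them, at 0.91 and 0.87 on the log2 scale. The transcription factors IRF1 and IRF9, the helicases IFIH1 and DDX60, the GTPases GBP1 and GBP2, the poly-ADP-ribosyltransferases PARP9, PARP12 and PARP14, and IFI6, IFI35, IFIT1, IFIT3, IFIT5, OAS1, USP18, EPSTI1, SP110, TRIM21, BST2, IFITM2 and IFITM3 made up the rest. IRF1 had estimates of -0.43 and -0.51 in the NET29 and NET39 lines, and -0.47 with the NET47 fragment, none of which passed. EPSTI1, above background on 4 arrays, and BST2, above it on 6, were near background in most groups.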

How the data were processed

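The authors measured RNA of 27 samples in 8 groups on Illumina HumanHT-12 v3 bead chips after labelling it as biotin cRNA. The deposited table of intensity values holds 1 unnormalised intensity per probe and array for 48803 probes, with its scanner settings not given in the sources used here. A second deposited table holds log2 values that the authors quantile normalised with limma, whose order of probes within an array matched that of the intensities (lowest rank correlation 1). The deposited intensities were background corrected with normexp (offset 50), quantile normalised and taken to log2, and 8 group means were fitted to all arrays (R 4.3.3, limma 3.58.1, 19 residual degrees of freedom). Moderated tests were adjusted by the Benjamini-Hochberg method over all 48803 probes, and the fit was tested on simulated data. Gene symbols came from the platform annotation, which gave 27577 probes 1 symbol, 13 several and 21213 none. Tables and figures were made with Python 3.11.15, numpy 2.4.6, pandas 2.3.3 and matplotlib 3.10.9.

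The members and further gene lists were chosen with earlier results of these data known. Array values are given for the 12 members above background on at least 3 arrays with the widest range of group means, every member past the threshold in a comparison is named, and up to 4 genes of each further list are named per comparison. Bounds ("at least", or "set against the background level") set the brighter group's mean against the higher of each array's background level and the dimmer probe's own signal. They do not allow for the spread between arrays. Overlap between arrays was examined for the members only, so no share of all genes without overlap stands beside it. Intensities carry no read depth, and the number of arrays limits the precision. Transient or stable expression was taken from the labels, although the study's text in 1 place calls the fragment cells stable.

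Replicate numbers were shared between groups. Deviations of same-numbered arrays from their group means correlated in every pair for the NET47 fragment and NLS-GFP (0.39 to 0.61) and for the NET39 and NET29 lines (0.34 to 0.67), so that the numbers pair the arrays there, but not in the other comparisons. Alternatives were the replicate block, other normalisations, the authors' table, no background correction, a filter on dim probes, the compared arrays alone, the other control, the mean of a gene's probes, the moderated F test and the omission of each array. Some items are not reported here.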

Additional observations from a re-analysis of the deposited data

Results flagged for a closer look

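Of 39 groups of 4 arrays tested over 13 members, 2 held an array far from the other 3. Chance flags about 5% of such groups. Both were NET39 full-length replicate 2, with ISG15 at 7.98, where the nearest array was at 7.70, and ISG20 at 10.06, where the nearest was at 9.29.

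In 10 cases the effect of a soluble fragment differed from that of the full-length line of the same NET by the test of the difference itself. For NET29 these were MX1 (1.35), IFI27 (2.53), TRIM22 (0.90) and HERC5 (-0.89). For NET39 they were MX1 (1.71), OAS2 (0.82) and HERC5 (-0.80). For NET47 they were MX1 (-1.56), OAS2 (1.07) and TRIM22 (0.94). Each value is the fragment's log2 difference from NLS-GFP minus the line's from untreated cells, and the mode of expression changes with the form of the protein in all of them.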

How the results depend on the processing

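Of 42 calls of single members, 35 were kept with every single array left out, 15 were also kept under every other alternative, and 0 reversed. Counts of members called, out of 40, moved as follows. The share of all genes called was counted under the main setting only. With the compared arrays only, they were 2, 3 and 0 for the NET29, NET39 and NET47 lines, 2 and 1 for the NET29 and NET39 fragments, and 2, 1 and 1 for the NET29, NET39 and NET47 interactions. With NLS-GFP as the control of the lines they were 11 (3 higher, 8 lower), 11 (3 and 8) and 4 (2 and 2), and with untreated cells as the control of the NET29 and NET47 fragments 2 and 5. Median scaling gave 1 for the NET47 line and 2 for the NET29 interaction. The moderated F test gave 2 and 1 for the NET29 and NET39 fragments, 1 for NLS-GFP against untreated cells, and 5 for each of the NET39 and NET47 interactions. That test asks for any difference among the 8 groups, and its 1 adjusted p per gene was used for every comparison. Calls under it are thus no test of the comparison named. The mean of all probes gave 1 for the NET47 fragment. Leaving out the pair of arrays apart on the second component (untreated 2, NET47 line 3) gave 1 for the NET47 line, 1 for NLS-GFP, and 3 for the NET47 against the NET39 line. The cause was not tested.

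With single arrays left out, counts ranged from 4 to 8, 5 to 7 and 1 to 4 for the NET29, NET39 and NET47 lines, 0 to 1, 0 to 1 and 2 to 2 for the fragments, 0 to 2 for NLS-GFP, 9 to 11 for transient against stable, 4 to 7, 1 to 3 and 3 to 5 for the interactions, 0 to 0 for NET39 against NET29 lines, 3 to 4 for NET47 against NET29 and 3 to 5 for NET47 against NET39. The highest counts for the NET29 line (8) and its interaction (7) were without untreated replicate 1. With the replicate block, 6, 5 and 2 members were called in the NET29, NET39 and NET47 lines, 2 with the NET47 fragment and 9 between transient and stable groups. In the 2 comparisons taken as paired the block changed no call (2 and 0 with the compared arrays only). Over all groups, 28 of 87 same-numbered pairs correlated above 0.1 (median 0.016), and so did 65 of 231 differently numbered pairs (median 0.007). Of the 27 arrays, 16 were closest to an array of their own number.

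Several calls named above were lost in places. HERC5 in the NET29 line was lost without NET29 full-length replicate 2 (0.48), and, with the compared arrays only, IFI27 and HERC5 in both lines, OAS2 in the NET29 line (adjusted p = 0.152) and TRIM22 in the NET47 line (adjusted p = 0.206). HERC5 between transient and stable groups was lost under cyclic loess (-0.48), and OAS2, OAS3 and OASL with the mean of their probes (0.24, 0.33 and -0.33). In the NET29 interaction MX1 (0.93, adjusted p = 0.157) and TRIM22 (0.41, adjusted p = 0.673) were lost under median scaling, and in the NET47 interaction TRIM22 (1.31, adjusted p = 0.217).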
